A study of Mus musculus with 20 samples.

Results

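The mRNAs of 10 mouse genes that reduce, oxidise or release iron and handle heme were followed through an RNA immunoprecipitation with iron regulatory protein 2 (IRP2) in 5 tissues. The genes are Cybrd1, Heph, Cp, Steap3, Slc25a37, Slc25a28, Hmox1, Flvcr1, Hpx and Ncoa4, and they were taken by symbol out of 18194 genes that have a probe set of their own on the array. They hold 22 of the array's 45101 probe sets: 8 for Cp, 3 for Steap3, 2 each for Cybrd1, Flvcr1 and Ncoa4, and 1 for each other gene. A further probe set that carries the symbol Slc25a37 beside another one was not used.

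Recombinant IRP2 with a His tag, made in E. coli, was added to total RNA from C57BL6/J mice, and the complexes were recovered with a monoclonal antibody against the tag. In the control reaction the protein was left out, so its arrays show the RNA that came down without IRP2. Each reaction took 50 µg of RNA, and about 120 ng of recovered RNA was amplified in 2 cycles and hybridised to Affymetrix arrays of the mouse genome. The 10 groups are the IRP2 reaction and the control reaction in each tissue, with 2 arrays each and 20 in all. For duodenum, liver and spleen the RNA was pooled from 4 mice that had eaten an iron-poor diet (under 10 mg iron per kg) for 21 days after weaning. For bone marrow and brain it was pooled from 6 mice aged 8 to 10 weeks on an iron-normal diet, so diet and age cannot be told apart from these tissue sets. The labels give the sex as mixed and do not say whether both arrays of a group drew on 1 pool, so every p-value measures only the spread between these arrays, which may be technical.

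IRP2 binds iron-responsive elements (IREs), short stem-loops in the mRNAs of the transferrin receptor, ferritin, ferroportin and a few other genes, and thereby holds or releases their translation or decay when iron runs low. The 10 genes here act on the same iron and are not among the 8 textbook IRE mRNAs that served as a yardstick, of which 6 were measured. Cybrd1 (duodenal cytochrome b) reduces ferric iron at the gut surface, and Steap3 does so in the endosomes of erythroid precursors. Hephaestin (Heph) and ceruloplasmin (Cp) oxidise ferrous iron as it leaves cells. The mitoferrins Slc25a37 and Slc25a28 carry iron into mitochondria, where heme is made. Hmox1 breaks heme down, Flvcr1 exports it, and hemopexin (Hpx) is the plasma protein that carries free heme to the liver. Ncoa4 brings ferritin to the lysosome, which frees its iron.

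The arrays matched their tissue labels, in that the marker list of each tissue was highest in that tissue. In the control reactions, the mean log2 value of the marker list of each tissue was 12.1 and 12.9 for duodenal epithelium in duodenum, 12.7 and 12.8 for liver in liver, 9.83 and 9.93 for B and T cells in spleen, 12.2 and 10.9 for myeloid cells in bone marrow, and 10.3 and 10.1 for brain in brain. Some markers of other tissues were seen as well. Pancreas acinar markers averaged 12.12 and 12.31 in duodenum, 9.43 and 9.94 in spleen, and 7.14 and 7.56 in bone marrow. Duodenal markers averaged 8.22 and 9.17 in liver. The array medians lay between 5.39 and 5.71 in 2 ranges, and the lower range held spleen, bone marrow and 1 brain replicate. Levels were therefore tested only between tissues of 1 range, duodenum against liver and spleen against bone marrow, and are otherwise given as the log2 value minus the array's own median. A probe set was tested if its value reached its array's median on at least 2 of the 20 arrays. That held for 30153 probe sets and for 19 of the 22. The exceptions were Cp 1441326_at, Steap3 1430355_a_at and Steap3 1453498_x_at, whose highest log2 values on any array were 4.78, 3.68 and 3.54. Bone marrow control replicate 1 stood apart: its mean rank correlation with the spleen arrays was 0.908, while the remaining 3 arrays of this tissue had 0.824 to 0.825. Where this array is left out, bone marrow control holds 1 array, which is assumed to vary like the other groups.

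None of the 19 tested probe sets was called higher or lower with IRP2 in any tissue. With limma, 0 of 19 had an adjusted p under 0.05 in duodenum, liver, spleen, bone marrow or brain, on the mean of the 5 tissue ratios, or in the F test that the ratios are equal in all tissues, and 0 had an unadjusted p under 0.05 in any of these. Over all tested probe sets, calls in either direction came to 0.371% on the mean, 0.00332% in the F test, 0.073% for duodenum, 0.0332% for liver, 0.063% each for spleen and brain and 0.00995% for bone marrow, so a count of 0 among 19 is near the background. With the replicate number as a block, which gives narrower errors, again 0 were called, and the lowest adjusted p was 0.148. The background was then 1.21% on the mean, 0.0398% in the F test, 0.726% for bone marrow, 0.295% for duodenum, 0.219% for liver, 0.305% for spleen and 0.143% for brain. Without bone marrow control replicate 1, limma also called 0 of the 19 in bone marrow and on the mean. In the fit with the block 1 probe set had an unadjusted p under 0.05 in duodenum and 3 had one in bone marrow. Shares over all tested probe sets at the unadjusted threshold are not given, so these unadjusted counts cannot be set against a background.

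The mean log2 ratio of IRP2 over control ran among the 19 between -0.19 (Ncoa4 1420808_at) and 0.16 (Heph), with a median of 0.00, against -0.02 over all tested probe sets. On the same arrays the mRNAs with a textbook IRE that were measured on their brightest probe set stood at 1.90 ± 0.12 for Tfrc, 1.52 ± 0.11 for Alas2, 1.45 ± 0.12 for Slc11a2 and 0.83 ± 0.09 for Fth1 (log2 ratio, SE), all 4 called, and at 0.46 ± 0.14 for Epas1 and 0.45 ± 0.12 for Slc40a1, called with the replicate block only. The 95% intervals of the 19 mean ratios set a limit on the mean enrichment over the tissues, and not on that in a single tissue. Their upper ends corresponded to between 1.13-fold for Flvcr1 1425399_at and 1.86-fold for Cybrd1 1460604_at. Some of these genes were bright in few tissues, and the errors in a single tissue, given below, are wider. Cybrd1 1460604_at has liver arrays that differ between replicates in both reactions, and with the replicate block its interval ran from -0.19 to 0.10 on the log2 scale. A ratio that missed the threshold does not show that IRP2 left an mRNA untouched: the intervals give the sizes of the mean ratio still possible.

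**Figure D1:**
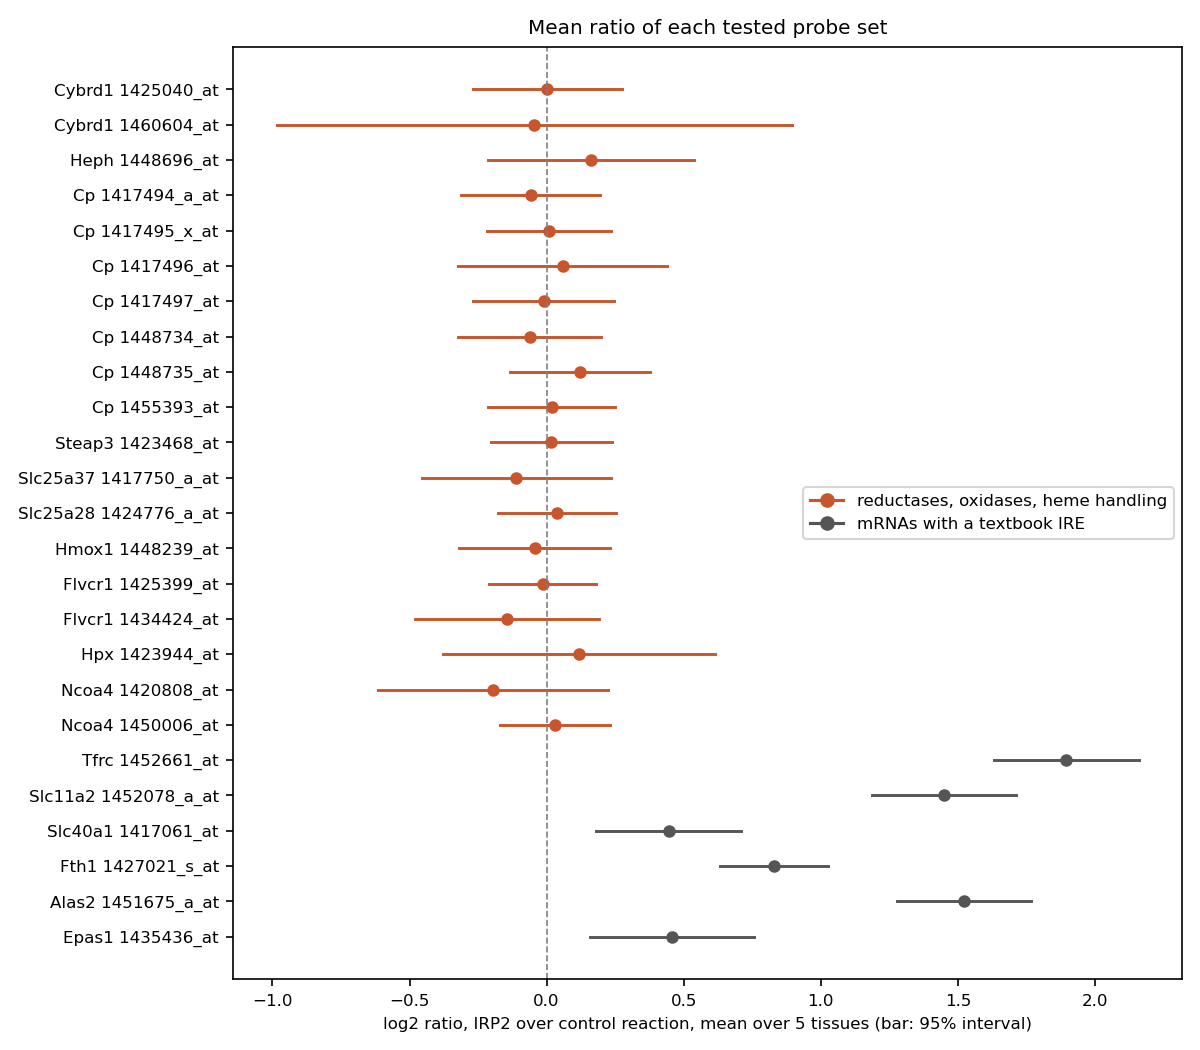
Mean log2 ratio of the IRP2 over the control reaction (x axis) for the 19 tested probe sets and for 6 mRNAs with a textbook IRE on their brightest probe set. Points are means over 5 tissues and bars are 95% intervals from limma. All 19 intervals cross 0, and those of the 6 IRE mRNAs lie above it.

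Of the reductases, Cybrd1 was bright in duodenum. On probe set 1460604_at its log2 values in duodenum were 12.43 and 12.71 in the IRP2 reaction and 12.24 and 12.87 in the control reaction. The groups overlapped, and the ratio was 0.02 ± 0.99 (SE). Cybrd1 1425040_at gave 8.68 and 9.44 in the IRP2 reaction and 8.82 and 9.25 in the control reaction, a ratio of 0.02 ± 0.28. Steap3, on its 1 tested probe set, was brightest in bone marrow, at 7.77 and 7.61 in the IRP2 reaction and 7.48 and 7.66 in the control reaction. These values overlapped too, with a ratio of 0.12 ± 0.23, and without bone marrow control replicate 1 the ratio of Steap3 was 0.03.

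Of the ferroxidases, Heph had the highest mean ratio, 0.16 ± 0.18. In duodenum its log2 values were 10.78 and 11.32 in the IRP2 reaction and 10.26 and 11.06 in the control reaction, a ratio of 0.39 ± 0.39 (limma adjusted p = 1.0, and unadjusted p = 0.047 and adjusted p = 0.777 with the replicate block). Each IRP2 array lay above the control array of its own number, by 0.53 and 0.26, but the groups overlapped. In brain the ratio of Heph was 0.34, in liver 0.17 and in bone marrow 0.19 (-0.05 without bone marrow control replicate 1), while in spleen both IRP2 arrays (3.20 and 2.81) lay below both controls (3.22 and 3.37). Outside duodenum all Heph values lay below the array median, where they do not show whether the mRNA was detected. The mean ratio of Heph draws on these values too. Cp in liver, its brightest tissue, had log2 values of 12.36 and 12.93 in the IRP2 reaction and 12.45 and 12.92 in the control reaction on probe set 1417494_a_at, a ratio of -0.04 ± 0.27. The mean ratios of the 7 tested Cp probe sets ran from -0.06 to 0.12. In bone marrow, where Cp is dim, the ratio was -0.42 on 1448734_at and 0.38 on 1448735_at, and neither was called (adjusted p = 0.148 and 0.164 with the replicate block). Without bone marrow control replicate 1 the limma ratios of these Cp probe sets were -0.51 and 0.04.

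Neither mitoferrin was called in any tissue. Slc25a37 in spleen gave 11.76 and 11.72 in the IRP2 reaction and 11.77 and 11.89 in the control reaction, a ratio of -0.09 ± 0.36 with all IRP2 values below the controls. Slc25a28 in spleen gave 9.50 and 9.09 in the IRP2 reaction and 9.27 and 9.05 in the control reaction, a ratio of 0.14 ± 0.23 with overlap. The mean ratios were -0.11 ± 0.16 for Slc25a37 and 0.04 ± 0.10 for Slc25a28.

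The heme genes gave ratios of similar size. Hmox1 in spleen had log2 values of 10.07 and 9.37 in the IRP2 reaction and 10.13 and 9.77 in the control reaction, a ratio of -0.23 ± 0.29 with overlapping groups. Hpx in liver had 13.17 and 13.44 in the IRP2 reaction and 13.14 and 13.30 in the control reaction, a ratio of 0.09 ± 0.52, again with overlap. Flvcr1 on 1434424_at had 8.75 and 8.64 in the IRP2 reaction and 8.90 and 8.88 in the control reaction of spleen, where both IRP2 arrays lay below both controls and the ratio was -0.19 ± 0.35. The mean ratios were -0.04 ± 0.13 for Hmox1, 0.12 ± 0.23 for Hpx, and -0.15 ± 0.16 and -0.01 ± 0.09 on the 2 Flvcr1 probe sets.

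Some probe sets had arrays that did not overlap between the reactions. Both IRP2 arrays lay above both controls for 1 of the 19 in brain (4.21% of all tested probe sets), 2 in duodenum (14.4%), 2 in bone marrow (14.5%), 2 in liver (13.9%) and 3 in spleen (15.6%). Both lay below for 4 in brain (6.44%), 1 in duodenum (8.98%), 2 in bone marrow (12.1%), 1 in liver (20.7%) and 4 in spleen (20.2%). Each gene with over 1 tested probe set and some separation showed it on some of its probe sets and not on all, apart from Flvcr1, on which both probe sets lay below the controls in spleen and in brain. The ratios there were -0.14 and -0.19 in spleen and -0.11 and -0.17 in brain, and none was called.

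The lowest ratio was that of Ncoa4 in bone marrow. On probe set 1420808_at its log2 values were 7.81 and 9.07 in the IRP2 reaction and 9.57 and 8.97 in the control reaction, a ratio of -0.83 ± 0.44 (limma adjusted p = 0.801, and 0.151 with the replicate block). The 2 pairs disagreed: the difference was -1.76 in pair 1 and 0.10 in pair 2. The pairs of Slc25a37 disagreed too, with -0.81 in pair 1 and 0.11 in pair 2, but through a different array. For Ncoa4 1420808_at the array that stood apart was IRP2 replicate 1, at 7.81. For Slc25a37 it was control replicate 1, at 11.91, against 11.14 in control replicate 2 and 11.10 and 11.25 in the IRP2 reaction. The second Ncoa4 probe set, 1450006_at, gave a ratio of only -0.17 ± 0.21. Without bone marrow control replicate 1 the ratio was -0.53 for Ncoa4 1420808_at and 0.04 for Slc25a37, and without the bone marrow the mean ratio of Ncoa4 1420808_at was -0.04.

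Erythroid markers differed between the pairs as well, with their highest mean in control replicate 1. Of the 7 listed, 5 had a probe set of their own, and 4 (Slc4a1, Ermap, Klf1 and Epb42) were above the array median in bone marrow. Their differences were between -0.94 (Slc4a1) and -1.49 (Epb42) in pair 1 and between 0.08 (Klf1) and 0.27 (Epb42) in pair 2. The mean of the 5, Hba-a1 among them at 3.71 to 4.23 on its only probe set of its own, was 8.83 and 9.13 in the IRP2 reaction and 9.68 and 8.99 in the control reaction. Myeloid markers averaged 11.53 and 10.95 in the IRP2 reaction and 12.18 and 10.86 in the control reaction. The part of either in the bone marrow ratios was not tested.

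**Figure D2:**
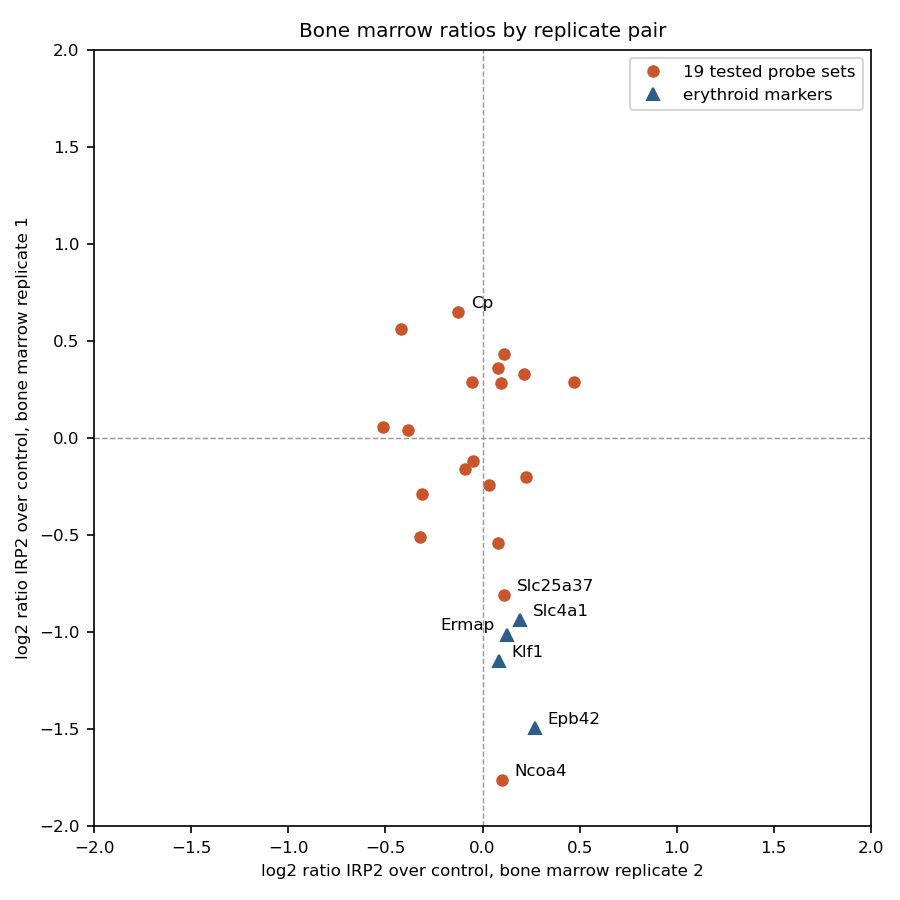
Log2 ratio of IRP2 over control in bone marrow, replicate pair 1 (y axis) against pair 2 (x axis). Circles are the 19 tested probe sets and triangles are 4 erythroid markers. Ncoa4 and Slc25a37 lie low on the y axis, at -1.76 and -0.81, beside the markers at -0.94 to -1.49, and near 0 on the x axis.

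In the control reactions, which show the tissues' own RNA after unspecific recovery and amplification, the 10 genes differed in their tissue patterns. The gut set was Cybrd1 and Heph, highest in duodenum. Ncoa4 also had its highest mean there but lay above the array median in all tissues. Bone marrow was next for Ncoa4, lower by only 1.14 on 1420808_at and 0.49 on 1450006_at. The difference between duodenum and bone marrow was not tested. The liver set was Hpx and 5 of the 7 tested Cp probe sets. Hmox1, Flvcr1 on 1434424_at and Slc25a28 had their highest mean in spleen, Slc25a37 was high in spleen and bone marrow, and Steap3 was highest in bone marrow. In pooled tissue RNA, more cells of a type and more RNA per cell cannot be told apart, and levels of different probe sets cannot be set against each other.

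**Figure D3:**
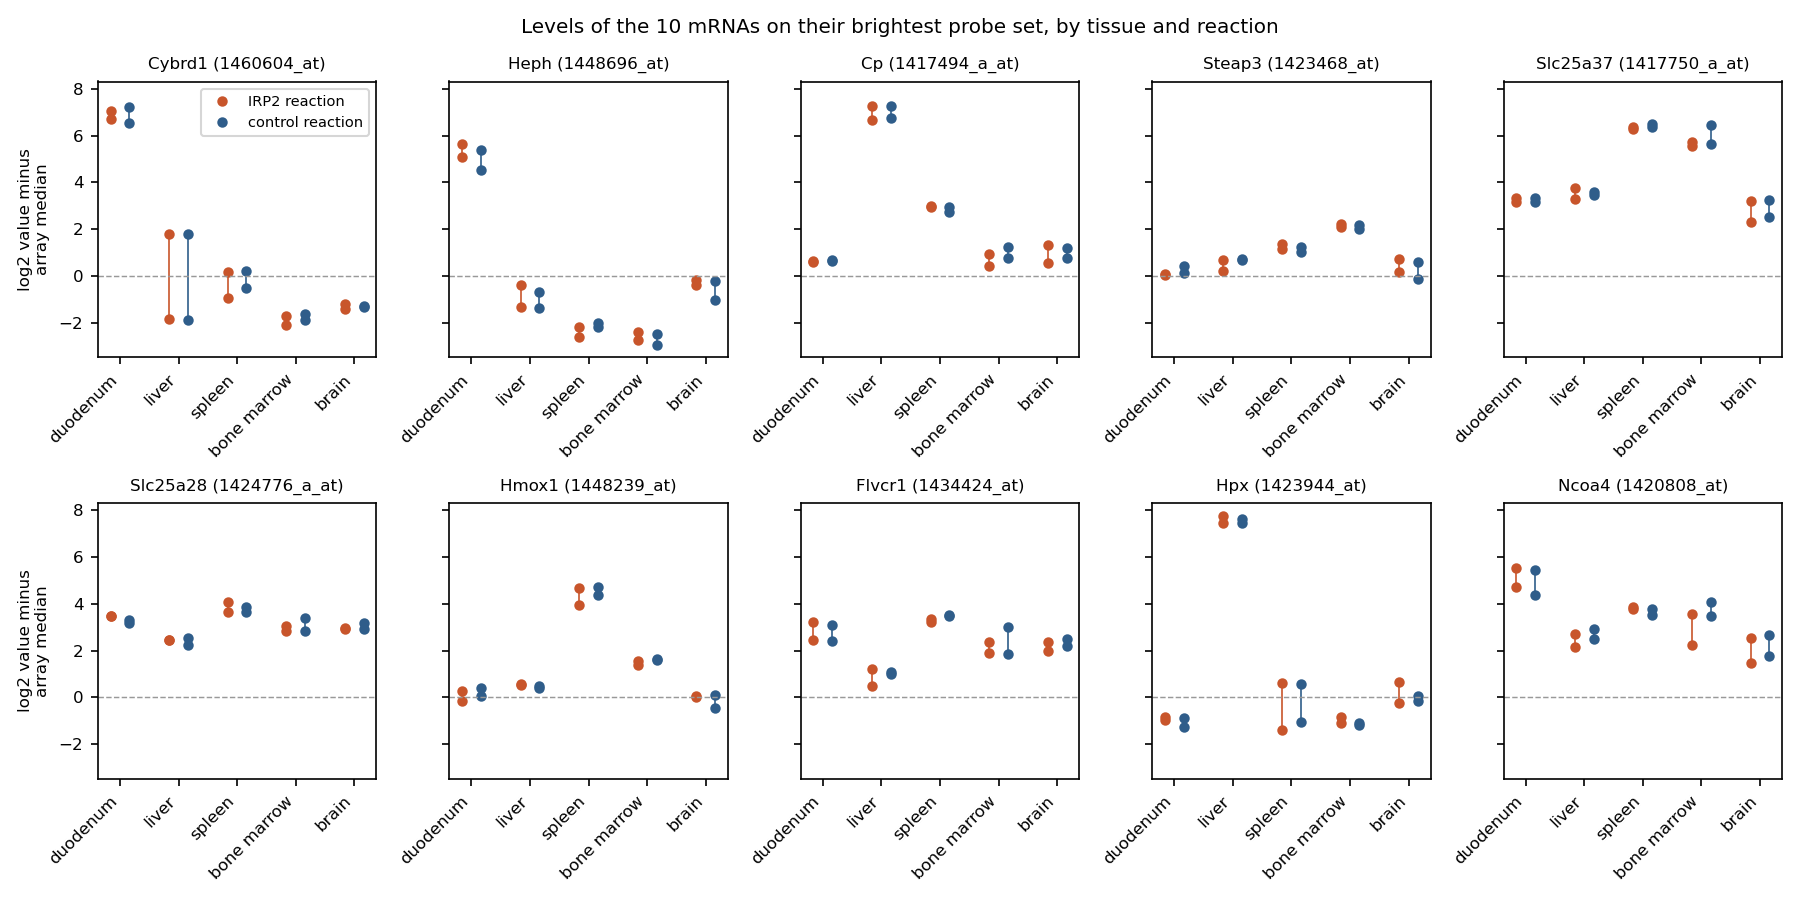
Log2 value minus the array's median (y axis) for the brightest probe set of each of the 10 genes in 5 tissues. Each point is 1 array, IRP2 reactions (orange) left of control reactions (blue), and the dashed line is the array median. Cybrd1 and Heph stand out in duodenum, Cp and Hpx in liver and Hmox1 in spleen, alike in both reactions.

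Between duodenum and liver, both from mice on the iron-poor diet, 15 of the 19 probe sets differed: 7 were higher in duodenum and 8 were lower (limma, adjusted p under 0.05). Over all tested probe sets 9.11% were higher and 8.39% lower, 17.5% together. Heph and Cybrd1 1425040_at reached the array median in duodenum only. They thus passed the filter through the tissue in which they were then called higher, and the count is partly set by the filter. Cybrd1 1460604_at had log2 values of 12.24 and 12.87 in duodenum, against 3.79 and 7.47 in liver. No array overlapped, and the difference was 6.92 ± 0.99 (SE, adjusted p = 6.58e-05). The liver arrays differ, and the difference of Cybrd1 1460604_at was 5.08 without liver control replicate 1 and 8.76 without liver control replicate 2, called both times. Heph had 10.26 and 11.06 in duodenum, against 4.32 and 4.99 in liver, a difference of 6.01 ± 0.39 (adjusted p = 1.22e-08). Both liver values of Heph lay below the array median, where the values do not show whether the mRNA was detected, so no fold is given. The other Cybrd1 probe set differed by 3.49 ± 0.28. Markers of pancreas acinar cells moved with these genes: the mean of the 4 measured of 6 was 12.12 and 12.31 in duodenum, against 8.08 and 8.02 in liver, and their part in the result was not tested.

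Hpx was lower in duodenum than in liver. Its log2 values were 4.84 and 4.39 in duodenum, against 13.14 and 13.30 in liver, a difference of -8.60 ± 0.52 (adjusted p = 4.77e-09). The duodenum values of Hpx lay below the array median, so here too no fold is given. Cp on 1417494_a_at had 6.35 and 6.34 in duodenum, against 12.45 and 12.92 in liver, a difference of -6.34 ± 0.27. All 7 tested Cp probe sets were lower in duodenum, by -1.35 to -7.00 on the log2 scale.

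Smaller differences between duodenum and liver fell to Ncoa4, Flvcr1 and Slc25a28, all higher in duodenum. Ncoa4 had 10.11 and 11.11 in duodenum, against 8.19 and 8.59 in liver on 1420808_at, a difference of 2.22 ± 0.44, and its other probe set differed by 1.06 ± 0.21. Flvcr1 1434424_at had 8.13 and 8.77 in duodenum, against 6.67 and 6.77 in liver, a difference of 1.73 ± 0.35. Slc25a28 had 9.04 and 8.84 in duodenum, against 8.24 and 7.91 in liver, a difference of 0.87 ± 0.23 (adjusted p = 0.0119), but this call was lost without duodenum control replicate 1 (0.77, adjusted p = 0.095) or liver control replicate 2 (0.71, adjusted p = 0.152). Not called were Steap3 (-0.41, 95% interval -0.90 to 0.09), Slc25a37 (-0.26, -1.03 to 0.51), Hmox1 (-0.20, -0.82 to 0.41) and Flvcr1 1425399_at (0.20, -0.23 to 0.64).

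Upstream sequences of a gut gene, 2 liver genes and the heme exporter are shown because these genes carry the tissue differences above. They are the 250 bases before an annotated start in RefSeq (the first of 2 for Cp), on build GRCm38.p6, printed 5′ to 3′ on the strand of the gene. RefSeq starts were at hand for 7 of the 10 genes, with 13 starts in all, and not for Heph, Slc25a37 and Hmox1. Capitals mark matches, on either strand, to 3 motifs that do not overlap here: ACGTG, the core to which hypoxia-inducible factors bind, TGACNNNGC, the core of the element bound by Nrf2 and Bach1 with small Maf proteins, and GTTAAT, a part of the site of the liver factor HNF1.
Cybrd1 upstream, chr2:71117804-71118053, strand +: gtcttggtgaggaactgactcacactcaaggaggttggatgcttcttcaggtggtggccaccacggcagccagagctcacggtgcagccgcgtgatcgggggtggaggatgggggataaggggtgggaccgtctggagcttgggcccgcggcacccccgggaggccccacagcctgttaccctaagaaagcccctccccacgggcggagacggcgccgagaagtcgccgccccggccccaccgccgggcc
Cp upstream, chr3:19956804-19957053, strand +: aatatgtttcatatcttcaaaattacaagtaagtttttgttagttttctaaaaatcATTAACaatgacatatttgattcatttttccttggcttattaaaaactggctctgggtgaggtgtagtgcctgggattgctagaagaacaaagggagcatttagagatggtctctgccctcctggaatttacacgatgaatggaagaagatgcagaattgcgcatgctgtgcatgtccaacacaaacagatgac
Hpx upstream, chr7:105600117-105600366, strand -: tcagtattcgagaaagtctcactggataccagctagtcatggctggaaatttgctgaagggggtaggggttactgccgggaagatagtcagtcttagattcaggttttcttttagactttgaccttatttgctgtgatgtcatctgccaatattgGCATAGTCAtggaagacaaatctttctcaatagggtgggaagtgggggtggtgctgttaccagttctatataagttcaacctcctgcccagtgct
Flvcr1 upstream, chr1:191026191-191026440, strand -: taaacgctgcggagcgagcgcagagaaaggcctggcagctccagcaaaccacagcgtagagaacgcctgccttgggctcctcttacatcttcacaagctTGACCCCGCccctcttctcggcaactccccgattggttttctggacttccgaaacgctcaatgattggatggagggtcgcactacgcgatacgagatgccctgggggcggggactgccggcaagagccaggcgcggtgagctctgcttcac
The Cybrd1 window has no match. The Cp window holds ATTAAC, the reverse complement of GTTAAT, starting 194 bases before the start. Hpx holds a match to the second motif on the reverse strand 95 bases before its start, and Flvcr1 one on the forward strand 151 bases before its start. Among 32851 RefSeq windows of the same length, 16.6% hold ACGTG, 10.2% TGACNNNGC and 6.43% GTTAAT. Of the 13 windows of these genes, 3 hold the first (Slc25a28 and 2 of the 3 Ncoa4 starts), 3 the second (Hpx, Flvcr1 and 1 of Ncoa4) and 1 the third. A match is a run of letters and no measured site.

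Between spleen and bone marrow 9 of the 19 probe sets differed, 8 higher in spleen and 1 lower (limma, adjusted p under 0.05). The background is large here: 26.7% of all tested probe sets were higher and 7.93% lower, 34.7% together, and their median difference was 0.15. Of all calls 77.1% were higher in spleen as deposited, against 55.0% after quantile normalization of all arrays and 62.2% after centring each array on its median. The count for the 19 was 7 higher and 1 lower under both other scalings, since Flvcr1 was then not called. Over all tested probe sets 15.3% were higher and 12.5% lower after quantile normalization, and 22.5% and 13.7% after centring. Most of the probe sets higher in spleen belong to 1 gene, Cp, and are not independent of each other. Diet and age also differ between these tissues and cannot be told apart from tissue.

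Hmox1, the enzyme with which spleen macrophages break down the heme of old red cells, showed the largest difference of the 19 between these tissues. Its log2 values were 10.13 and 9.77 in spleen, against 7.09 and 7.13 in bone marrow, a difference of 2.84 ± 0.29 or 7.17-fold (adjusted p = 4.27e-06). Without bone marrow control replicate 1 the difference of Hmox1 was 2.82, and after quantile normalization of all arrays it was 2.29, still called. Macrophage markers moved the same way: the mean of the 7 listed was 10.10 and 10.36 in spleen, against 8.36 and 8.01 in bone marrow, and their part in the result was not tested. So did markers of B and T cells: the mean of the 5 measured of 6 was 9.83 and 9.93 in spleen, against 8.02 and 7.43 in bone marrow, and their part was not tested either.

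Steap3, the ferrireductase of erythroid endosomes, was the 1 probe set lower in spleen, at 6.40 and 6.61, against 7.48 and 7.66 in bone marrow. The difference was -1.07 ± 0.23 (adjusted p = 0.00297), and it ran from -0.96 to -1.42 over 28 alternatives, each of them called. The means of the erythroid markers overlapped, at 8.93 and 9.20 in spleen, against 9.68 and 8.99 in bone marrow. Myeloid markers went the way of Steap3, with means of 9.01 and 8.79 in spleen, against 12.18 and 10.86 in bone marrow. The part of either list in the Steap3 difference was not tested. Slc25a37, the mitoferrin of erythroid cells, was bright in both, at 11.77 and 11.89 in spleen, against 11.91 and 11.14 in bone marrow. It was not called (0.30, 95% interval -0.47 to 1.07), and without bone marrow control replicate 1 the difference of Slc25a37 was 0.69 (adjusted p = 0.205). Slc25a28 was at 9.27 and 9.05 in spleen, against 8.87 and 8.32 in bone marrow (0.57, adjusted p = 0.0644), and it was called without bone marrow control replicate 1 (0.84, adjusted p = 0.012).

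Cp was higher in spleen on 6 of its 7 tested probe sets, by 1.74 to 2.27. On 1417494_a_at the log2 values were 8.13 and 8.35 in spleen, against 6.26 and 6.75 in bone marrow, a difference of 1.74 ± 0.27 (adjusted p = 0.000224). The exception, 1417496_at, gave 5.49 and 5.12 in spleen, against 5.23 and 6.28 in bone marrow, and was not called. Without bone marrow control replicate 1 the 6 Cp differences lay between 1.49 and 2.17 and all were called. After quantile normalization of all arrays the difference on 1417494_a_at was 1.29, also called. Flvcr1 1434424_at had 8.90 and 8.88 in spleen, against 8.47 and 7.34 in bone marrow, a difference of 0.99 ± 0.35 (adjusted p = 0.0407). The call was lost under 11 of 28 alternatives, and the value moved with the marrow arrays: Flvcr1 1434424_at differed by 0.42 (adjusted p = 0.497) without bone marrow control replicate 2 and by 1.55 (adjusted p = 0.003) without bone marrow control replicate 1. Not called were both probe sets of Cybrd1 and of Ncoa4, Heph, Hpx and Flvcr1 1425399_at.

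Across all 5 tissues, with the array median subtracted, the Cp probe sets did not give 1 order. Liver was highest on 5 of the 7, for example at 6.77 and 7.25 above the array median on 1417494_a_at, with spleen next at 2.74 and 2.96 and the other 3 tissues at 0.64 to 1.26. On 1417497_at spleen was highest at 2.11 and 2.16, above liver at 1.22 and 1.35 and brain at 1.08 and 1.10. On 1448735_at spleen was again highest at 1.69 and 1.57, and liver (0.49 and 0.46) overlapped with brain (0.37 and 0.51). These probe sets thus disagree on the tissue in which Cp is highest, while all 7 put duodenum below liver.

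**Figure D4:**
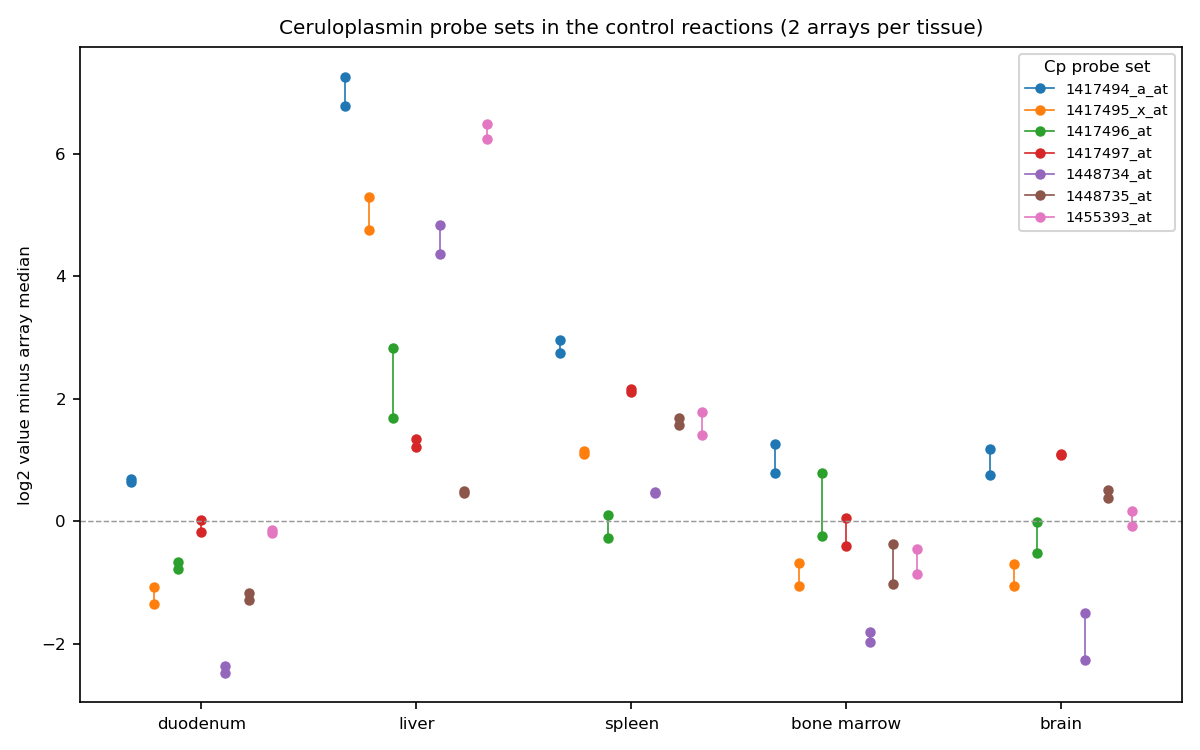
Log2 value minus the array's median (y axis) for the 7 tested Cp probe sets in the control reactions of 5 tissues. Each point is 1 array and lines join the 2 arrays of a tissue. In liver 5 probe sets reach their highest level, while 1417497_at and 1448735_at are highest in spleen.

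For the other genes the order of the tissues was as follows, again above the array median in the control reactions. Cybrd1 on 1460604_at was at 6.53 and 7.21 in duodenum, far above liver (-1.88 and 1.80) and spleen (0.21 and -0.53), which overlapped, and above brain and bone marrow. Heph was at 4.55 and 5.40 in duodenum and below the array median in every other tissue, with brain (-0.22 and -1.02) and liver (-1.36 and -0.68) overlapping. Ncoa4 1420808_at was at 4.40 and 5.45 in duodenum, followed by bone marrow (4.10 and 3.48) and spleen (3.53 and 3.80), which overlapped, and by liver and brain, which did too. Hmox1 was at 4.74 and 4.38 in spleen and at 1.62 and 1.64 in bone marrow, and liver, duodenum and brain followed without separation between neighbours. Hpx was at 7.46 and 7.63 in liver, and its 4 other tissues, between -1.26 and 0.56, each overlapped with the next. Slc25a37 was at 6.37 and 6.50 in spleen and 6.44 and 5.65 in bone marrow, which overlapped, and between 2.52 and 3.58 elsewhere. Slc25a28 ran from 2.40 in liver to 3.77 in spleen (means of 2 arrays). Flvcr1 1434424_at was highest in spleen (3.51 and 3.49) and lowest in liver (1.00 and 1.10), while on Flvcr1 1425399_at spleen (0.24 and 0.27) overlapped with duodenum (0.08 and 0.36), and each further tissue overlapped with the next. Steap3 was at 2.01 and 2.17 in bone marrow and next in spleen (1.01 and 1.22), with duodenum and brain overlapping at the low end.

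Some levels differed between the replicates of a tissue in the IRP2 and the control reaction alike. Cybrd1 1460604_at in liver was at 3.86 in replicate 1 and 7.46 in replicate 2 of the IRP2 reaction, and at 3.79 and 7.47 in the control reaction. A gap of at least 3 between the control replicates was seen in 0.0232% of tested probe sets in liver. The other Cybrd1 probe set showed no such gap (5.27 and 5.47 in the IRP2 reaction and 5.49 and 5.60 in the control reaction). Duodenal markers moved with it: the mean of the 5 measured of 6 was 8.18 and 9.14 in the IRP2 reaction and 8.22 and 9.17 in the control reaction, and 3 of them were above the array median in replicate 1 and 5 in replicate 2. Vil1 was at 5.21 and 6.70 in the IRP2 reaction and 5.06 and 6.87 in the control reaction. Their part in the result was not tested.

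Hpx in spleen behaved in the same way, at 4.01 in replicate 1 and 6.05 in replicate 2 of the IRP2 reaction, and at 4.34 and 5.95 in the control reaction. Liver markers moved with it, with a mean over 6 of 5.67 and 7.26 in the IRP2 reaction and 5.77 and 7.22 in the control reaction. Alb, the albumin mRNA, was at 4.95 and 9.58 in the IRP2 reaction and 4.99 and 9.49 in the control reaction. Their part in the level of Hpx was not tested, and because each gap was alike in both reactions, it left the ratio of IRP2 over control near 0 (0.03 for Cybrd1 1460604_at in liver and -0.11 for Hpx in spleen).

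The genes whose levels were most like those of the 10 over the 10 control arrays are given as a description, since the points share tissues and arrays. Likeness is the Pearson correlation of the log2 values minus the array median. Slc25a37 was most like Car1 (0.997), Rhd and Gpsm3, of which Car1 and Rhd are genes of red cells. Hpx was most like Fga (0.994), Mug1 and Apoh, all genes of liver plasma proteins. Cybrd1 1460604_at was most like 9130208D14Rik (0.992), Cdh17, an intestinal cadherin, and Tm4sf5, and Heph was most like Degs2 (0.986), Entpd7 and Cst6. Hmox1 was most like Grap (0.994), Fcrl1 and Gimap6, which are known from lymphocytes. Cp 1417494_a_at was most like Scd1 (0.989), Flvcr1 1434424_at like Skp2 (0.991), Ncoa4 1420808_at like Azin1 (0.983), Steap3 like Igfbpl1 (0.979) and Slc25a28 like Med9 (0.957).

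Other genes of the same pathways gave few calls as well. Tested were 15 of 17 further reductases, oxidases and iron transfer proteins, 25 of 25 further heme genes, 10 of 10 mitochondrial carriers near the mitoferrins and 15 of 15 genes of ferritinophagy, each on its brightest probe set. With limma 0 of these were called in any tissue or on the mean. With the replicate block 1 was: Cyb561d2, of the cytochrome b561 family to which Cybrd1 belongs, at -0.71 in bone marrow (adjusted p = 0.0442). Without bone marrow control replicate 1 Cyb561d2 was at -0.70 with the block (adjusted p = 0.0345) and at -0.53 without it (adjusted p = 1.0). The median of the mean ratios was -0.04, 0.01, -0.11 and -0.02 in these 4 lists, against -0.02 over all tested probe sets.

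Between duodenum and liver the share of all tested probe sets was 9.11% higher and 8.39% lower in the control reactions. Of these lists, 3 of the 25 heme genes were higher in duodenum and 11 lower, with a median of -0.14 against 0.01 over all. Slc46a1, the folate carrier of the gut that was first described as a heme carrier, was higher by 2.54 ± 0.33, and Hp, the hemoglobin carrier haptoglobin, was lower by -7.22 ± 0.45. Also lower were Ambp (-6.45 ± 0.41), a liver plasma protein that binds heme, and Hebp1 (-4.34 ± 0.29), a heme-binding protein. Of the reductase list, Cyb561 was higher (3.20 ± 0.32), and the ferrireductase Steap4 (-6.03 ± 0.34) and the metal importer Slc39a8 (-2.26 ± 0.34) were lower. Of the carriers 2 were higher, among them Slc25a36 (2.63 ± 0.37), and 1 was lower, and of the ferritinophagy genes 2 were higher and 4 lower, among them Gabarapl1 (-2.65 ± 0.26).

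Between spleen and bone marrow the counts of these lists moved with the scaling. Over all tested probe sets 26.7% were higher in spleen and 7.93% lower as deposited, against 15.3% and 12.5% after quantile normalization. As deposited, 7 of 15 reductase and iron transfer genes were higher in spleen and 2 lower, against 3 and 3 after quantile normalization. The heme genes gave 6 higher and 3 lower, against 3 and 5, the carriers 7 and 0, against 4 and 2, and the ferritinophagy genes 10 and 1, against 3 and 3. The largest differences in the first 2 lists were those of 3 neutrophil proteins that bind siderophores, iron or hemoglobin, lower in spleen as deposited: Lcn2 by -4.20 ± 0.80, Ltf by -3.53 ± 0.45 and Hp by -3.03 ± 0.45. Blvra, which turns the biliverdin made by Hmox1 into bilirubin, was higher in spleen by 1.71 ± 0.24, and so was Slc40a1, the iron exporter ferroportin, by 2.39 ± 0.28.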

How the data were processed

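The deposited log2 values are probe set summaries that the authors made by background correction, normalization and summarisation, per the labels and the series' design text, which name RMA or MAS5 in GCOS without versions. Because the array medians lie in 2 ranges, the arrays may not have been normalized together. Of 45101 probe sets, 64 Affymetrix controls were left out. Gene symbols came from the platform annotation: 34958 probe sets had 1 symbol, 932 several and 9211 none.

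From there, limma 3.58.1 in R 4.3.3 was fitted to all 30153 tested probe sets (66.9%) with a mean for each of 10 groups (10 residual degrees of freedom, prior 5.34). Contrasts were IRP2 minus control per tissue, their mean, an F test, and 2 contrasts of control levels. Adjustment followed Benjamini and Hochberg over all tested probe sets, and a call is an adjusted p under 0.05. The fit was tested on simulated data. Arrays give no read depth, and 2 arrays per group limit the precision.

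Arrays of 1 replicate number deviated together from their group means (correlation 0.923 for brain, 0.676 for duodenum, 0.565 for liver, 0.385 for spleen, 0.251 for bone marrow). The numbers were therefore taken as pairs on the strength of the values alone, and the second fit blocked on them (5 residual degrees of freedom, with 7.52 prior ones). Alternatives were the filter, quantile normalization, centring, a trended robust prior, single tissues and leaving out each array.

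The 10 genes, the lists and the tests were chosen with earlier results of these data known. All probe sets of the 10 genes are named. Of other lists, only some of the called genes are named and the rest are counted, and a gene stands on its brightest probe set. Motifs were searched with Python 3.11.15 in RefSeq upstream sequences, and figures were drawn with matplotlib 3.10.9.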

Additional observations from a re-analysis of the deposited data

How the results depend on the processing

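The ratios of IRP2 over control of the 19 probe sets stayed uncalled in all 3093 combinations of probe set, comparison and alternative that were run, with 190 changes of sign among these uncalled values and a lowest adjusted p of 0.134, for Cp 1417495_x_at in bone marrow with the replicate block and without bone marrow control replicate 1. That pair of changes was chosen after seeing the data, and it called 454 probe sets higher and 413 lower in bone marrow over all tested, and 899 and 318 on the mean, with 0 of the 19 in either. The tissue difference test stayed uncalled in 506 (lowest adjusted p 0.788). With the replicate block, limma called 0 of the 19 in each tissue and on the mean, so the pairing changed no call, although calls over all probe sets on the mean came to 366 with it and 112 without. Control levels stayed on their side of the threshold in 1035 of 1050 combinations, no called value changed its sign, 13 lost a call (11 of Flvcr1 1434424_at between spleen and bone marrow, 2 of Slc25a28 between duodenum and liver) and 2 gained one (Slc25a28 between spleen and bone marrow). With a filter of 10 arrays at or above the median, 22719 probe sets and 12 of the 19 were left, and 8 were called between duodenum and liver in place of 15, because fewer were tested. Under quantile normalization the spleen minus bone marrow difference of Flvcr1 1434424_at was 0.39 (adjusted p = 0.319). Values of the 3 probe sets below the filter, run without it, gave mean ratios of 0.05, -0.03 and 0.04, all uncalled. The spread between 2 arrays and the brightness of each probe set set the size of ratio that could be seen.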
